A study of Mus musculus with 3 samples.

Results

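The genes described here are a set of type I interferon genes and the chains of their receptor. They were chosen by gene name, and 10 of the 36870 gene names on the array are members: the ligands Ifnb1, Ifna1, Ifna2, Ifna4, Ifna5, Ifna7, Ifna9 and Ifnab, and the receptor chains Ifnar1 and Ifnar2. The choice was made with the differences between these arrays in view, so the differences are given as a description, with no test. RNA came from RAW264.7, a mouse macrophage cell line, on 3 one-colour Agilent arrays, 1 per condition. Macrophages received LPS, the bacterial agonist of TLR4, alone, or after treatment with Lactiplantibacillus plantarum LOC1 or with L. plantarum LOC3, both isolated from tea leaves. The LPS stimulus, which all 3 groups share, lasted 3 h. By the design text deposited with the arrays the lactobacilli were present for 12 h before it, whereas the study's methods give a longer time, and its methods and results differ on the dose of LPS. With 1 array per condition there is no SD between cultures and no p-value for any difference below.

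Type I interferons are secreted proteins that warn neighbouring cells of microbes. All of them bind one receptor, made of the chains Ifnar1 and Ifnar2, which acts through the kinases Jak1 and Tyk2 and the factors Stat2 and Irf9 to switch on interferon-stimulated genes. Downstream of TLR4, the adaptors Ticam1 and Ticam2 and the kinase Tbk1 activate Irf3, which with NF-kB switches on Ifnb1. In the mouse, Ifnb1 and Ifna4 are known as the early forms, while the other alpha genes depend more on Irf7, which interferon itself raises.

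The members were read by 16 probes, 10 for the ligands and 6 for the receptor chains, and 13 of the 16 matched a RefSeq transcript by accession. Alpha interferon genes have no introns and resemble each other closely, so the probe sequences decide how far the members can be told apart. The 60-base probes that follow lie in the alpha genes on chromosome 4, positions being those of mouse build mm9 in the array files. Capitals mark the longest stretch that a probe shares with the probe of another gene of this set, where that is at least 15 bases.
Ifna5 (chr4:88481935-88481994, plus strand): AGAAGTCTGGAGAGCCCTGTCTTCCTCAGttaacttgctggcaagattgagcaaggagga
Ifnab (chr4:88336567-88336626, minus strand): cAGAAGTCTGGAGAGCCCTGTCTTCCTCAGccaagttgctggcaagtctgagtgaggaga
Ifna1 (chr4:88496501-88496560, plus strand): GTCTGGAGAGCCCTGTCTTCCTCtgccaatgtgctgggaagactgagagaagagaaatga
Ifna2 (chr4:88329111-88329170, minus strand): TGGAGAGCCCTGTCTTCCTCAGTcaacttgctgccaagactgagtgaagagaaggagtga
Ifna4 (chr4:88487994-88488053, plus strand): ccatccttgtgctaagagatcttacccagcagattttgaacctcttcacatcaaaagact
Ifna7 (chr4:88462393-88462452, plus strand): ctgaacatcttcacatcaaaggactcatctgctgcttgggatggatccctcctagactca
Ifna9 (chr4:88237854-88237913, minus strand): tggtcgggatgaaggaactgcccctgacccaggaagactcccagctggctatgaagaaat
Ifnab dimmer probe (chr4:88336693-88336752, minus strand): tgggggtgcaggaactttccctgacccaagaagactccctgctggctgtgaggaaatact

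The brightest probes of Ifna5 and Ifnab had 29 bases in a row in common, and those of Ifna1 and Ifna2 each had 23 in common with Ifna5. The Ifnab probe also shared 35 bases in a row with the probe of Ifna14, a further alpha gene. The array's own annotation assigns 5 of the 16 member probes to another gene as well: the Ifna1 probe to Ifna16, the brighter Ifna2 probe to Ifna9, the Ifna7 probe to Ifna15, the brighter Ifnab probe to Ifna6 and Ifna15, and the brightest Ifnar1 probe to Cenpc1. Signals of these alpha genes are therefore uncertain as to gene. No run of over 13 bases was shared with the probe of another type I interferon gene by the probes of Ifnb1, Ifna4, Ifna7 and Ifna9 or by the dimmer probes of Ifna2 and Ifnab. Even so, the Ifna9 probe and the dimmer Ifnab probe matched at 48 of 57 aligned bases.

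The promoters of the members are shown as background, and whether their motifs bear on the differences was not tested. RefSeq promoter windows of 300 bases, in build GRCm38.p6, were at hand for 9 of the 10 members, all but Ifna7. Each stretch that follows is 110 bases long. For the ligands it ends at the TATA-like box, TATAAA in Ifnb1 and TATTTAA in the alpha genes, and for the receptor chains, where no such box was sought, at the base before the listed start. Capitals mark matches, on either strand, to AANNGAAA, the core that interferon regulatory factors bind, and to GGGANNTTC, a form of the site bound by NF-kB.
Ifnb1 (chr4:88522871-88522980, minus strand): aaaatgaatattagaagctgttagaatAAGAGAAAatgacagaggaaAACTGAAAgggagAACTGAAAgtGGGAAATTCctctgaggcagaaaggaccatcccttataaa
Ifna4 (chr4:88841661-88841770, plus strand): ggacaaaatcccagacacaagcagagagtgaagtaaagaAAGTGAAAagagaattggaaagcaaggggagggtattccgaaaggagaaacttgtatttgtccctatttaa
Ifna1 (chr4:88849884-88849993, plus strand): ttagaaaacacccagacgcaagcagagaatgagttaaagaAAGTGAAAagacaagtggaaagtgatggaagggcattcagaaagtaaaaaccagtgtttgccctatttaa
Ifna2 (chr4:88683871-88683980, minus strand): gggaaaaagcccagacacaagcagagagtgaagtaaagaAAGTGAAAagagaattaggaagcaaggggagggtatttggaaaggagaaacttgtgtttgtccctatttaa
Ifna5 (chr4:88835322-88835431, plus strand): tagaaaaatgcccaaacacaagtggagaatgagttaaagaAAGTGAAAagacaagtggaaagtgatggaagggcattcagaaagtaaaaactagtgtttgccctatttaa
Ifna9 (chr4:88592479-88592588, minus strand): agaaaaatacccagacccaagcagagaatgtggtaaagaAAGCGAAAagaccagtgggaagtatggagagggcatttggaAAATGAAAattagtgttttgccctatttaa
Ifnab (chr4:88691321-88691430, minus strand): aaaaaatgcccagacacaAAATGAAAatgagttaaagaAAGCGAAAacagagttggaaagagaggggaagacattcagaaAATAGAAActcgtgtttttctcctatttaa
Ifnar1 (chr16:91485105-91485214, plus strand): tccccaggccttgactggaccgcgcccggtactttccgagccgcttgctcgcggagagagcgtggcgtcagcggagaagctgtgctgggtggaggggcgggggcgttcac
Ifnar2 (chr16:91372673-91372782, plus strand): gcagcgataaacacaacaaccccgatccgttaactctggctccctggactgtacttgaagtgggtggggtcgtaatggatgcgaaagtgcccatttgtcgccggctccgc

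Over the whole 300-base windows, all 7 ligand promoters held an AANNGAAA match and 6 of them held at least 2, against 23.9% and 5.34% of all 32851 promoters in the table. A GGGANNTTC match was found in 1 of the 7, that of Ifnb1, where it lay just after an AANNGAAA match and did not overlap it. Of all promoters, 3.94% held that motif and 1.06% held both. Neither motif was found in the windows of Ifnar1 and Ifnar2. The alpha promoters are near copies of each other, as the shared runs of letters show, so they do not count as separate instances.

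Intensities are Feature Extraction processed signals, which are background-subtracted, and levels can be compared between arrays for 1 probe but not between probes. Differences are of log2 intensities after subtracting each array's 75th percentile, taken over its non-control spots, of 555 for LPS, 513 for LOC1 and 516 for LOC3. Where the scanner software did not mark a signal as well above background, the lowest signal so marked took its place, at 16.3, 14.5 and 19.8 on the 3 arrays in that order, and the difference is then a bound, written as at least. Spots printed 10 times gave a technical SD of a log2 difference from LPS of 0.06 for bright probes and of 0.27 with LOC1 and 0.31 with LOC3 for dim ones, those more than 2-fold under the 75th percentile. Only 10 to 12 dim probes stand behind the latter, and differences between cultures are not part of it. The 3 arrays shared 1 slide and 1 scan. All 8 macrophage markers measured, among them Csf1r, Cd68 and Lyz2, were well above background on every array, and none of the 4 epithelial markers was above background on all of them.

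With LPS alone Ifnb1 was far above unchallenged macrophages, while the alpha members that could be judged were under 2-fold. The authors deposited log2 ratios to unchallenged macrophages, an array not analysed here, and 7.08% of all probes were listed as at least 2-fold higher with LPS. Ifnb1 was listed at 8.70. The unchallenged intensity that this implies, 3.01, lies under the limit of 16.3, so the rise was at least 76.7-fold. All 10 ligand probes are in that table and none of the 6 receptor probes is. The ligand probes left blank in the LPS column could be rebuilt, since the columns share 1 reference. For the brightest probes the rebuilt log2 ratio of LPS to unchallenged was 0.64 for Ifna1, 0.94 for Ifna2, 0.24 for Ifna5, 0.26 for Ifna9 and 0.56 for Ifnab, all under 2-fold, while the dimmer Ifnab probe was at -0.24. The deposited ratio lists Ifna7 at 1.30, past 2-fold, but its intensity of 7.35 with LPS and the implied unchallenged 2.99 were both under the limit, so no fold can be given for it, nor for Ifna4 and the dimmer probe of Ifna2.

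With LOC1 before LPS, all 8 ligand genes were at least 2-fold higher than with LPS alone, and neither receptor chain was past 2-fold. Of the 20019 genes compared, 2.49% were at least 2-fold higher and 6.3% were past 2-fold either way. The median log2 difference of the ligands was 3.50, with bounds taken at their value, against 0.00 over all genes compared. Because the cells were measured in bulk, more RNA per cell and more cells making it cannot be told apart.

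Ifnb1, the early beta interferon, read 1251 on the LPS array, 18123 on the LOC3 array and 29911 on the LOC1 array. The LPS array was the lowest and the LOC1 array the highest, an order that each of the 10 ligand probes followed. For Ifna4, above background with LOC1 only, the order of the LPS and LOC3 arrays is not a measurement. The log2 difference from LPS was 4.69 with LOC1, 25.8-fold, and 3.96 with LOC3, 15.6-fold. The rise with LOC1 was at rank 2 of the 20019 genes compared, and that with LOC3 was at rank 10 of 19790. Ifnb1 was also the only ligand whose probe counts as bright, so its differences carry the smallest technical error among the ligands.

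Ifna4, the other early form, stayed near the limit of detection. Its intensity was 3.46 with LPS and 9.61 with LOC3, neither well above background, and 32.2 with LOC1. It was at least 2.13-fold higher with LOC1 than with LPS, and no fold can be given for LOC3 against LPS. The 2 early forms therefore differed in what could be measured: one was among the largest changes on the array and the other was above background on a single array.

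Ifna5 had the largest log2 difference among the alpha members above background on all 3 arrays. Its intensity rose from 42.1 with LPS to 349 with LOC3 and 742 with LOC1, log2 differences of 3.16 and 4.25. Ifnab followed the same order on both of its probes, with 52.7, 247 and 597 for the brighter one and 21.6, 74.7 and 178 for the dimmer one on the LPS, LOC3 and LOC1 arrays. The brighter probe was 12.2-fold higher with LOC1 and the dimmer one 8.90-fold, so both put Ifnab past 2-fold, as they did with LOC3 at 5.04-fold and 3.72-fold.

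Ifna7 was not detected above background with LPS, at an intensity of 7.35, and was at 74.5 with LOC3 and 196 with LOC1. The bound over LPS was at least 4.91-fold for LOC3 and at least 13.0-fold for LOC1. Ifna2 had 42.0 with LPS, 218 with LOC3 and 404 with LOC1 on its brighter probe, log2 differences of 2.48 and 3.38. Its dimmer probe, which shares no long run of bases with the other probes, was not above background with LPS, at 3.85, and reached 28.1 with LOC3 and 100.5 with LOC1. The bounds from that probe were at least 1.85-fold for LOC3 and at least 6.66-fold for LOC1, so for LOC3 this probe alone does not settle whether Ifna2 was past 2-fold.

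Ifna1 and Ifna9 moved least among the alpha genes measured on all 3 arrays. Ifna1 was at 57.1 with LPS, 170 with LOC3 and 320 with LOC1, and its log2 differences were 1.68 and 2.60. Ifna9 was at 38.7 with LPS, 49.3 with LOC3 and 88.1 with LOC1, and its log2 differences were 0.45 and 1.30. The difference of Ifna9 with LOC3 is under 2-fold, though above the technical SD of dim probes. Under normexp background correction, which shrinks the differences of dim probes, Ifna9 and the bound for Ifna4 were under 2-fold with LOC1 too, at 0.68 and 0.44. Ifna7 fell to 1.97 with LOC1 and 1.04 with LOC3, under the bounds given above, which hold for the main processing only. Ifna5 fell to 3.01 and 2.05, while Ifnb1 was at 4.63 and 3.90.

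**Figure D1:**
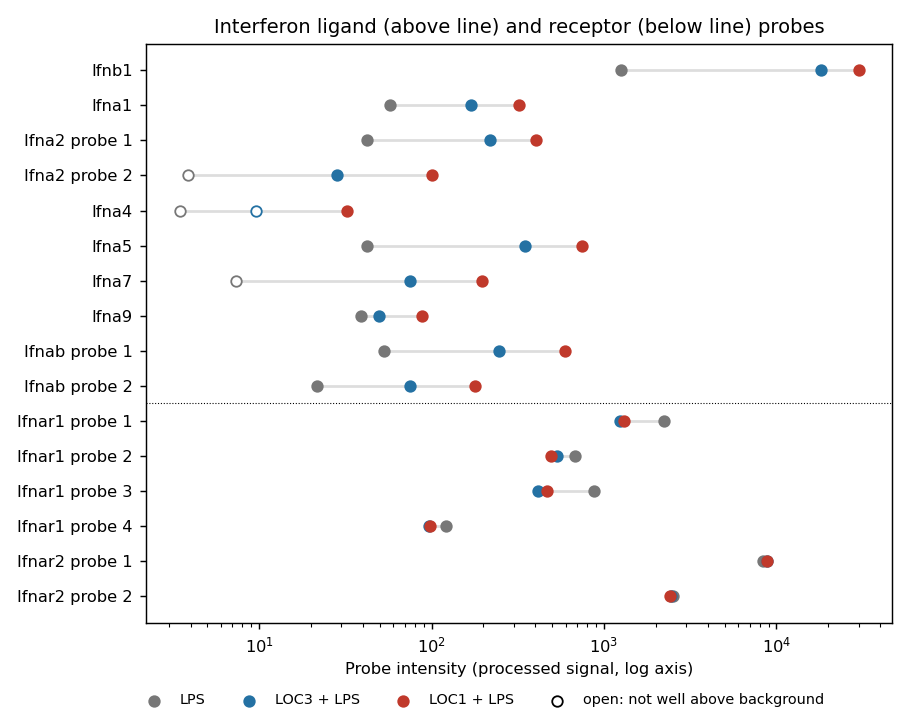
Probe intensity (horizontal, log axis) of each of the 16 member probes on the LPS, LOC3 + LPS and LOC1 + LPS arrays, with 1 point per array and open points for signals not well above background. Each ligand probe runs from LPS through LOC3 + LPS up to LOC1 + LPS, as Ifnb1 does from 1251 to 29911, while the receptor probes below the dotted line lie close together or are highest with LPS alone.

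With LOC3 before LPS, 7 of the 8 ligands could be compared with LPS, and 6 of those were at least 2-fold higher, where 2.98% of the 19790 genes compared were, and 6.15% were past 2-fold either way. Ifna9 was the one measured under 2-fold. The median log2 difference of the 7 ligands was 2.33, against 0.01 over all genes compared. Both comparisons with LPS use the same LPS array, so a low or high reading there would move LOC1 and LOC3 together. All 116 log2 differences that could be computed for the ligand probes, over the 3 comparisons and 4 ways of scaling the arrays, were above 0. They are not separate checks, since every scaling reuses the same 3 arrays. The bounds among them, detected only on the higher array, could not fall below 0. Over all genes compared, 50.1% with LOC1, 51.6% with LOC3 and 45% between the strains were above 0 under the main scaling.

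**Figure D2:**
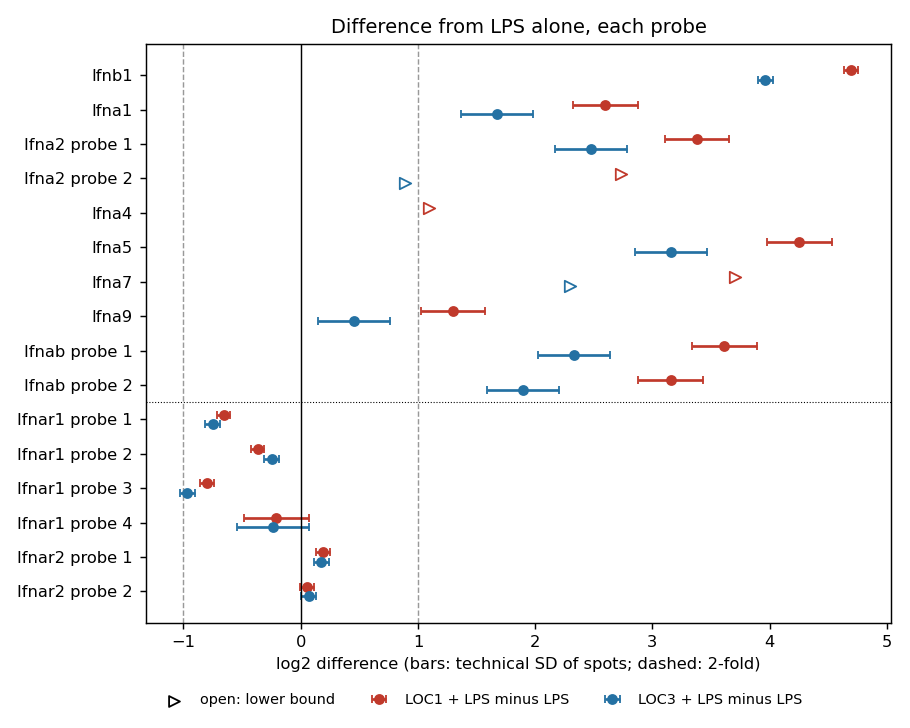
Log2 difference from LPS alone (horizontal) of each member probe with LOC1 and with LOC3, with bars for the technical SD of spots and open triangles for lower bounds. Ligand probes lie between 0.45 for Ifna9 with LOC3 and 4.69 for Ifnb1 with LOC1, whereas receptor probes lie between -0.97 and 0.19.

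The receptor chains behaved unlike their ligands. Ifnar1 was at 2225 with LPS, 1304 with LOC1 and 1232 with LOC3 on its brightest probe, and was lower by 0.66 with LOC1 and by 0.75 with LOC3 on the log2 scale. Both arrays with lactobacilli lay under the LPS array on each of its 4 probes. The other probes ranged from -0.80 to -0.21 with LOC1 and from -0.97 to -0.23 with LOC3. That of -0.97, close to 2-fold, belongs to a probe assigned to an Ensembl transcript with no RefSeq match. With the 75th percentile taken over probes above background on all arrays, that probe was past 2-fold with LOC3, at -1.05. The dimmest Ifnar1 probe differed by less than the technical SD of dim probes and turned to 0.01 with LOC1 under median scaling.

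Ifnar2 was at 8336 with LPS, 8799 with LOC1 and 8767 with LOC3 on its brighter probe, the 3 arrays lying within a log2 span of 0.19. The dimmer probe was at 2517, 2418 and 2456 in that order. Its log2 differences from LPS of 0.05 and 0.07 were near the technical SD and turned to -0.01 for both strains when the 75th percentile was taken over probes above background on all arrays. The lowest ligand with LOC1, the bound of 1.09 for Ifna4, lay above the higher receptor chain at 0.19. With LOC3 the lowest ligand, Ifna9 at 0.45, lay above Ifnar2 at 0.18, by less than the technical SD of dim probes.

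The 2 strains can be compared without the LPS array. All 8 ligands were higher with LOC1 than with LOC3, where 45% of the 19382 genes compared were. By their brightest probes 3 of them, Ifna5, Ifna7 and Ifnab, were at least 2-fold higher, where 0.8% of the genes compared were. The log2 differences between the strains were 0.73 for Ifnb1, 0.85 for Ifna9, 0.90 for Ifna2, 0.92 for Ifna1, 1.10 for Ifna5, 1.28 for Ifnab and 1.41 for Ifna7. Ifna4, above background with LOC1 but not with LOC3, could not come out lower and gave a bound of at least 1.63-fold. The dimmer Ifna2 probe, above background with both strains, was at 1.85, past 2-fold. These differences exceeded the technical SD, 0.06 for bright and 0.29 for dim probes, but each gene lay within that dim SD of its neighbour in the order. The median was 0.91 for the ligands and -0.01 over all genes compared. The receptor chains were at 0.09 for Ifnar1 and 0.01 for Ifnar2 between the strains.

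**Figure D3:**
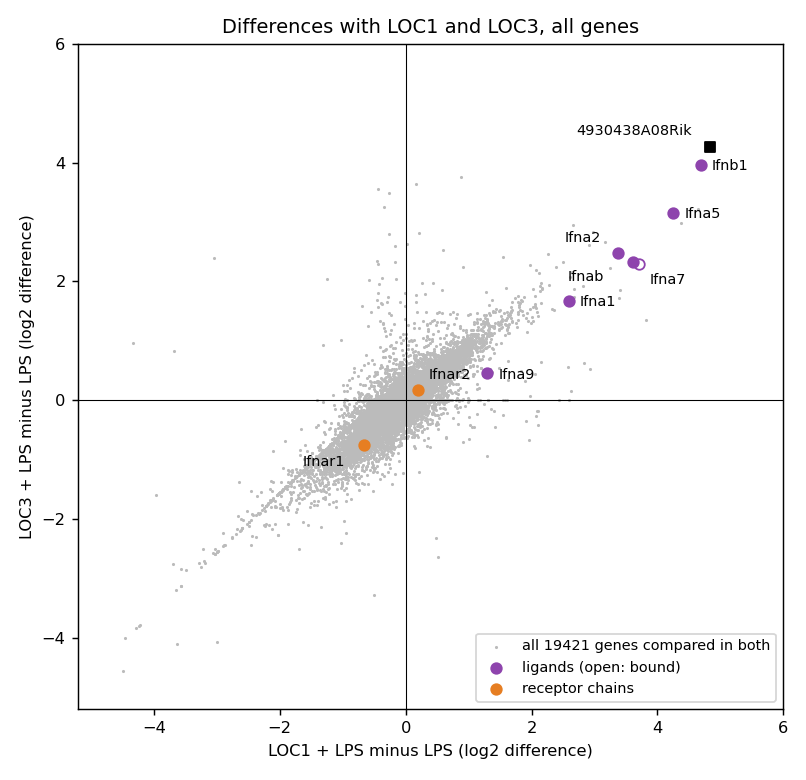
Log2 difference from LPS with LOC1 (horizontal) and with LOC3 (vertical) for all genes that could be compared in both, with ligands in purple, open for a bound, and receptor chains in orange. The ligands lie at the upper right and below the diagonal, Ifnb1 at 4.69 and 3.96, beside the transcript 4930438A08Rik at 4.84 and 4.26. The axes share the LPS array, which by itself spreads points along the diagonal.

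Of 17405 genes that all 3 arrays detected above background, 7 were at least 8-fold higher with LOC1, and 4 of those were the members Ifnb1, Ifna5, Ifnab and Ifna2. The genes whose 2 differences from LPS lay nearest to those of Ifnb1, by straight-line distance over the LOC1 and LOC3 values, were 4930438A08Rik, Slamf7, Esrrg, Olfr360 and Prickle1, of 17397 genes searched. The transcript 4930438A08Rik, at a distance of 0.33, went from 39.4 with LPS to 701 with LOC3 and 1043 with LOC1. Slamf7, a receptor on immune cells, came next, with log2 differences of 3.17 and 2.66, and Prickle1 was the farthest of the 5 at 2.74. This likeness rests on 3 arrays.

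Further type I interferon genes on the array were higher as well. Of 10 listed, 8 had a probe of their own name and 4 of those were above background on at least 1 array of each comparison. All 4 were at least 2-fold higher with both strains, where 2.49% of all genes compared were with LOC1 and 2.98% with LOC3. Ifna14 was at 60.4 with LPS, 188 with LOC3 and 359 with LOC1. The other 3 were not well above background with LPS and give bounds. They were compared only through the arrays with lactobacilli, so they could not come out lower. Ifna12 went from 7.92 to 378 with LOC1, at least 25.1-fold, and Ifna13 from 14.4 to 313, at least 20.7-fold. Ifna15 was at least 4.21-fold higher with LOC1. Ifna11, Ifna16, Ifne and Ifnk were not well above background on any array.

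Among interferons of the other types and their receptors, the genes that could be compared did not share the rise. Ifng, the type II interferon, was at 3.26, 2.91 and 3.89 with LPS, LOC1 and LOC3, never above background, so no change can be given. By qPCR the study reported higher IFN-γ with LOC1 before LPS. Ifnl3, a type III interferon whose probe is also assigned to Ifnl2, was at 102 with LPS, 60.0 with LOC1 and 75.9 with LOC3. The 4 genes of this list that could be compared, Ifnl3 and the receptor chains Ifngr1, Ifngr2 and Il10rb, all had differences below 0 with both strains, from -0.65 to -0.09 with LOC1 and from -0.41 to -0.05 with LOC3, and none was past 2-fold. Scaling by medians adds 0.22 to each difference with LOC1 and 0.18 with LOC3, which turns Il10rb, the smallest of the 4, above 0.

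All the type I genes named above other than Ifnk lie in one cluster on chromosome 4. By the mm9 probe positions, Ifnb1 stands at one end and Ifna1 328 kb away. Klhl9, a gene of another family that lies 196 kb from Ifnb1 between Ifnab and Ifna7, read 3544 with LPS, against 3425 with LOC1 and 3600 with LOC3. It differed from LPS by 0.06 and 0.13 on the log2 scale, the first turning to -0.002 when the 75th percentile was taken over detected probes. Hacd4 and Focad, at -109 and -111 kb, on the other side of Ifnb1, were at 0.27 and 0.00 with LOC1. Mtap, 659 kb from Ifnb1, had the largest difference of the neighbours compared, at -0.61 with LOC1 and -0.50 with LOC3. Of the 7 neighbours on the array, 4 could be compared and none was past 2-fold with either strain. That is near the share over all genes, of which 6.3% with LOC1 and 6.15% with LOC3 were past it.

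**Figure D4:**
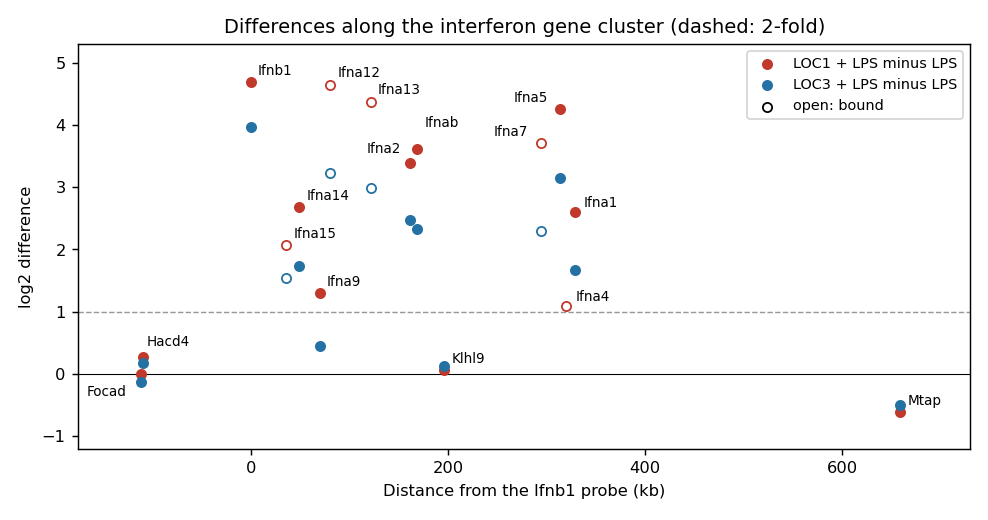
Log2 difference from LPS (vertical) against the distance of each gene's brightest probe from the Ifnb1 probe in kb (horizontal), for type I interferon genes and neighbouring genes that could be compared. Interferon genes lie above 1 with LOC1 along the whole cluster, and Klhl9 within it lies near 0 with both strains.

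By their brightest probes, genes that switch on the interferon genes were each under 2-fold, which is near the share over all genes, of which 6.3% with LOC1 and 6.15% with LOC3 were past it either way. None of the 18 on this list, from Tlr4 and its partners Cd14 and Ly96 to Irf3 and Irf7, was past it with either strain, and its median lay at 0.07 for LOC1 and 0.18 for LOC3 on the log2 scale. Irf7, on which most alpha genes depend, rose from 129038 with LPS to 163951 with LOC1 and 184848 with LOC3. It differed from LPS by 0.46 and 0.62 on the log2 scale. Irf3 was at -0.11 and -0.08, and at 0.11 and 0.10 under median scaling. Irf8, a factor of the myeloid lineage, was at -0.68 and -0.39, though its dimmer probe was past 2-fold at -1.83 and -1.57. Likewise the dimmer probe of Ikbke, a kinase related to Tbk1, was at -1.73 and -1.06, while the brighter one was at -0.57 and -0.45.

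None of the 10 genes that carry or restrain the receptor's signal was past 2-fold, which is again near the share over all genes. Usp18, which restrains signalling at Ifnar2, was at 0.43 with LOC1 and 0.52 with LOC3. The inhibitors Socs1 and Socs3 were lower, at -0.64 and -0.83 with LOC1 and at -0.33 and -0.44 with LOC3. The study's qPCR, by contrast, reported SOCS1 higher with LOC1 before LPS. Stat2 differed by 0.17 with LOC1.

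The interferon-stimulated genes, read by their brightest probes, were mostly higher by less than 2-fold. Of 20, 19 were above 0 with LOC1 and 20 with LOC3, and 2, Ifit3 and Cmpk2, were past 2-fold with both strains. Over all genes compared, 50.1% with LOC1 and 51.6% with LOC3 were above 0, and 2.49% and 2.98% were at least 2-fold higher. Over the 4 scalings 17 to 20 of the 20 listed genes were above 0 with either strain, and Ifitm3, Gbp2 and Cxcl10 changed sign with both. Ifit3 went from 12660 with LPS to 33122 with LOC1 and 28854 with LOC3. It differed from LPS by 1.50 and 1.29. Cmpk2 differed by 1.12 and 1.08, and by 0.99 and 0.93 under quantile normalization. Under median scaling Bst2, Ifit2 and Mx1 were past 2-fold with LOC1 too, at 1.12, 1.10 and 1.09, and Mx1 with LOC3 at 1.09. The median was 0.47 with LOC1 and 0.48 with LOC3. For LOC1 against LOC3, which differed by 0.73 in Ifnb1, the median of the differences of these genes was 0.01. Several of these genes were already raised by LPS alone. The deposited log2 ratio of LPS to unchallenged was 7.81 for Isg15, 9.70 for Ifit3 and 9.48 for Cmpk2, and no spot on the arrays was saturated. Dimmer probes did not all go the same way. Those of Cxcl10, Ifi44, Ifih1, Mx2 and Xaf1 were below 0 with both strains, and those of Mx1, Rsad2, Oas2 and Oasl1 above 0. The dimmer Cxcl10 probe was at -0.826 with LOC1 and -0.803 with LOC3. For Mx2 the bounds were -1.49 and -1.04, past 2-fold lower. The dimmer Mx1 probe was at 1.07, past 2-fold, and 0.98.

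**Figure D5:**
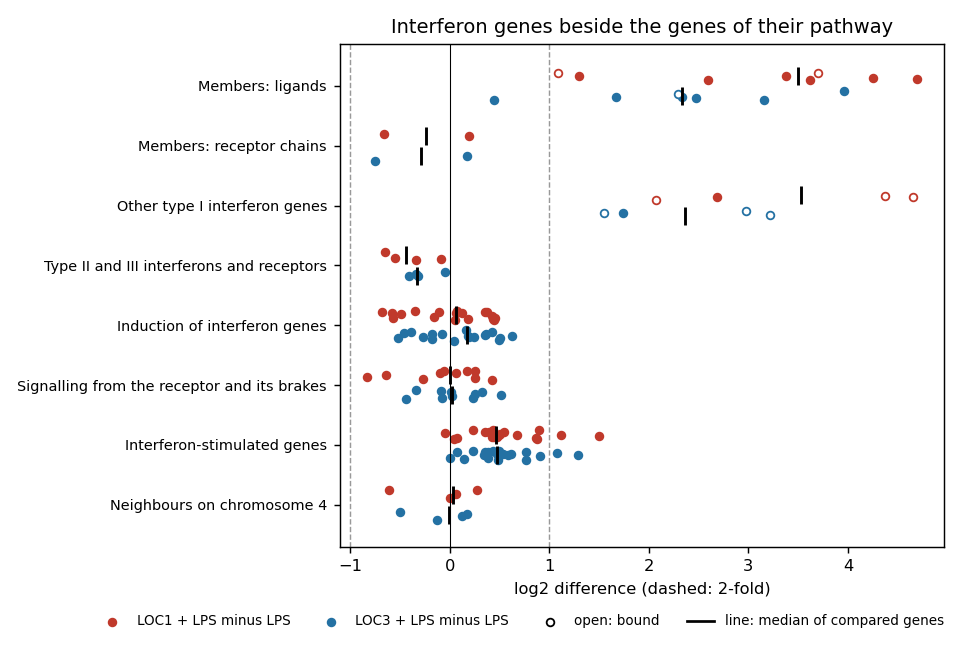
Log2 difference from LPS (horizontal) of the ligands, the receptor chains and 6 lists of related genes, with 1 point per gene for LOC1 and for LOC3, open points for bounds and black lines for medians of the compared genes. Ligand medians lie at 3.50 and 2.33, interferon-stimulated genes at 0.47 and 0.48, and the induction and signalling lists near 0.

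Plasmacytoid dendritic cells are the blood cells known for making the most alpha interferon. Of 6 of their markers, 5 were well above background on all arrays, Siglech being the brightest at 44973 with LPS, 34019 with LOC1 and 31442 with LOC3, and Klk1 was not above background. Summed over the list, unscaled intensity came to 54195 on the LPS array, against 43305 for LOC1 and 41294 for LOC3, and most of each sum is Siglech. Cox6a2 had the opposite order, at 3180 with LPS, 3687 for LOC1 and 3960 for LOC3. The RNA came from the RAW264.7 line, so signals of these markers, and of those that follow, do not show that other cell types were present. Of other cell types, 3 of 5 T cell markers, 1 of 4 B cell markers, 3 of 4 fibroblast markers and 0 of 4 epithelial markers were above background on all arrays. Cd4, the brightest of these, was at 895 with LPS, 738 for LOC1 and 757 for LOC3, while Cd3g, Cd8a and Cd79a were above background on none.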

How the data were processed

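RNA of RAW264.7 macrophages was hybridised to one-colour Agilent arrays, 1 per condition, with no replicates. The authors deposited each spot's intensity, background-subtracted by Feature Extraction 12.0.3.1 with no scaling between arrays. They also deposited log2 ratios to 1 common reference for 13135 probes, blank under 2-fold. Members and gene lists were chosen with earlier results of these data known. Spots marked as outliers were left out (118 to 135 per array), repeated spots averaged, and a gene was read by its brightest probe. A comparison took genes detected above background on either array, with a threshold of 2-fold and no test. The number of arrays limits the precision. All members are named, with genes of 7 related lists as their counts need, and the 5 genes nearest to Ifnb1. The alternatives tried were 3 other scalings, normexp (limma 3.58.1, offset 50), no filter and no floor, detection on both arrays, the mean of detected probes, outlier spots kept, a 3-fold threshold and the deposited ratios. The scripts used Python 3.11.15, with pandas 2.3.3 and numpy 2.4.6, and were tested on simulated data. Promoters are from RefSeq (GRCm38.p6), and probe positions are of mm9.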

Additional observations from a re-analysis of the deposited data

How the results depend on the processing

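No paired analysis was possible because each condition has 1 array. Of 239 log2 differences of members recomputed under the alternatives, 195 moved by less than the technical SD and 44 by more, and none changed direction. The 8 members past 2-fold with LOC1 and the 6 with LOC3 became 6 and 6 at 3-fold and with normexp, 8 and 7 with no filter and no floor, 6 and 5 with detection on both arrays, and 2 and 2 among the 2 members listed with LPS in the deposited ratios. Between the strains, 3 members past 2-fold became 0 at 3-fold and 1 with normexp. They became 4 with no filter and no floor and with the mean of detected probes, and 4 of the 7 compared in the deposited ratios. The listed log2 ratio of Ifnb1 with LPS of 8.70 became 6.26 with the dim side raised. Of all genes, 1261 with LOC1, 1218 with LOC3 and 509 between the strains were past 2-fold. These counts became 410, 399 and 283 at 3-fold, 420, 406 and 149 with normexp, and 3839, 3780 and 2814 with no filter and no floor. With detection on both arrays they were 845 with LOC1, 712 with LOC3 and 105 between the strains. Median scaling raised the median over all genes by 0.22 with LOC1 and 0.18 with LOC3 and turned the split with LOC1 from 499 higher and 762 lower to 884 and 472, and with LOC3 from 589 and 629 to 863 and 393. Quantile normalization gave 628 higher and 610 lower with LOC1 and 700 and 510 with LOC3.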
